A study of Cricetiscus sungorus with 41 samples.

Results

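AGMO, HTRA1, MAT1A and OGDHL were almost without counts in the blood of hamsters that had never shown torpor and were counted in every other animal of the series. They were chosen from the measured counts themselves: a gene symbol had to have at most 3 counts in each of 5 control libraries and at least 100 in each of 36 libraries from torpor-expressing hamsters. Of 20220 symbols in the table, 14418 had a count in some library, and 4 of these met the rule (0.0277%). The gap between controls and the other animals is therefore how the genes were picked and is described without a test. The 4 genes were tested within the 36 other animals, and comparisons with controls were tested for other genes.

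The samples were blood pellets of Djungarian hamsters (Phodopus sungorus, labelled as Cricetiscus sungorus), all of genotype WT, with 1 library per animal. The 36 torpor-expressing hamsters were acclimated to a short photoperiod and killed with CO2 at 32 ± 4 weeks of age. They were known to enter spontaneous daily torpor, taken as a body temperature below 32 °C for at least 30 minutes. On the sampling day 18 of them were hypothermic (HT) and 18 stayed normothermic (NT). Sampling fell at zeitgeber time 1 (ZT01, torpor entry, 5 HT and 6 NT), ZT04 (torpor nadir, 5 HT and 4 NT), ZT07 (arousal, 4 and 4) and ZT16 (after torpor, 4 and 4), where ZT counts hours from lights on. The methods give 8 h of light per day for the ZT04 animals. The 5 control animals had shown no torpor in their whole life. Their labels give no sex and no time point, and neither their age nor their photoperiod is stated in the sources used here, so those features, a separate stock or a separate batch cannot be told apart from the control group. Library totals ran from 50153600 to 71662267 counts, of which haemoglobin genes took 73.7% to 93.8%. The controls had 6304978 to 14562786 counts outside haemoglobin, against 3291472 to 9256883 in HT and NT animals, so their low counts of the 4 genes came with no lower depth. In whole blood fewer cells of a type and less RNA per cell cannot be told apart.

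The 4 genes have unrelated roles in mammals. AGMO encodes alkylglycerol monooxygenase, a membrane enzyme that cleaves ether lipids with tetrahydrobiopterin as cofactor. HTRA1 encodes a secreted serine protease that cuts matrix proteins, MAT1A the liver form of methionine adenosyltransferase, which makes the methyl donor S-adenosylmethionine, and OGDHL a mitochondrial enzyme close to the 2-oxoglutarate dehydrogenase of the citric acid cycle. None of them is a usual marker of blood cells. As background, each belongs to a protein family that also has members in bacteria: HtrA or DegP for HTRA1, MetK for MAT1A, SucA for OGDHL, and the fatty acid hydroxylase superfamily for AGMO. The symbols are human names, given by the authors to contigs of a transcriptome assembled from all samples together, on the best match of a translated contig to the human proteome. No sequence of a contig was used here, and the species a contig came from was not tested.

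HTRA1 and MAT1A had 0 counts in all 5 controls. AGMO had 2 counts in control replicate 4 and 0 in the other 4 controls. OGDHL had 2 counts in control replicate 3, 2 in replicate 5 and 0 elsewhere. The 3 values above 0 were thus all 2. Small counts in this table are even more often than odd (67.4% of the values from 1 to 49 over all symbols and libraries), whereas from 100 counts up to the highest of the 4 genes 50.7% of all values in HT and NT animals were even. Of the 144 values of the 4 genes there, 49.3% were even. The cause of the excess was not tested.

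In the 36 HT and NT libraries AGMO had 228 to 2149 counts with a median of 580.5. HTRA1 had 102 to 825 (median 229.5), MAT1A 108 to 1137 (median 266.5) and OGDHL 140 to 1286 (median 397.5). Scaled to 1000000 counts of the library (CPM, haemoglobin included), the means were 10.8 ± 6.21 for AGMO, 4.23 ± 2.33 for HTRA1, 5.26 ± 3.29 for MAT1A and 7.23 ± 4.02 for OGDHL (SD, n = 36). Against a floor of 3 counts per control library, on average 0.0503 CPM, HTRA1 was at least 84.0-fold and MAT1A at least 105-fold higher in HT and NT animals than in controls. AGMO had 2 counts over all controls and 23101 over the others, a ratio of rates of 1618 (95% exact interval 448 to 13364). OGDHL had 4 and 15586, a ratio of 546 (213 to 2004). These intervals cover counting error only and are no test, since the genes were chosen by this gap.

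**Figure D1:**
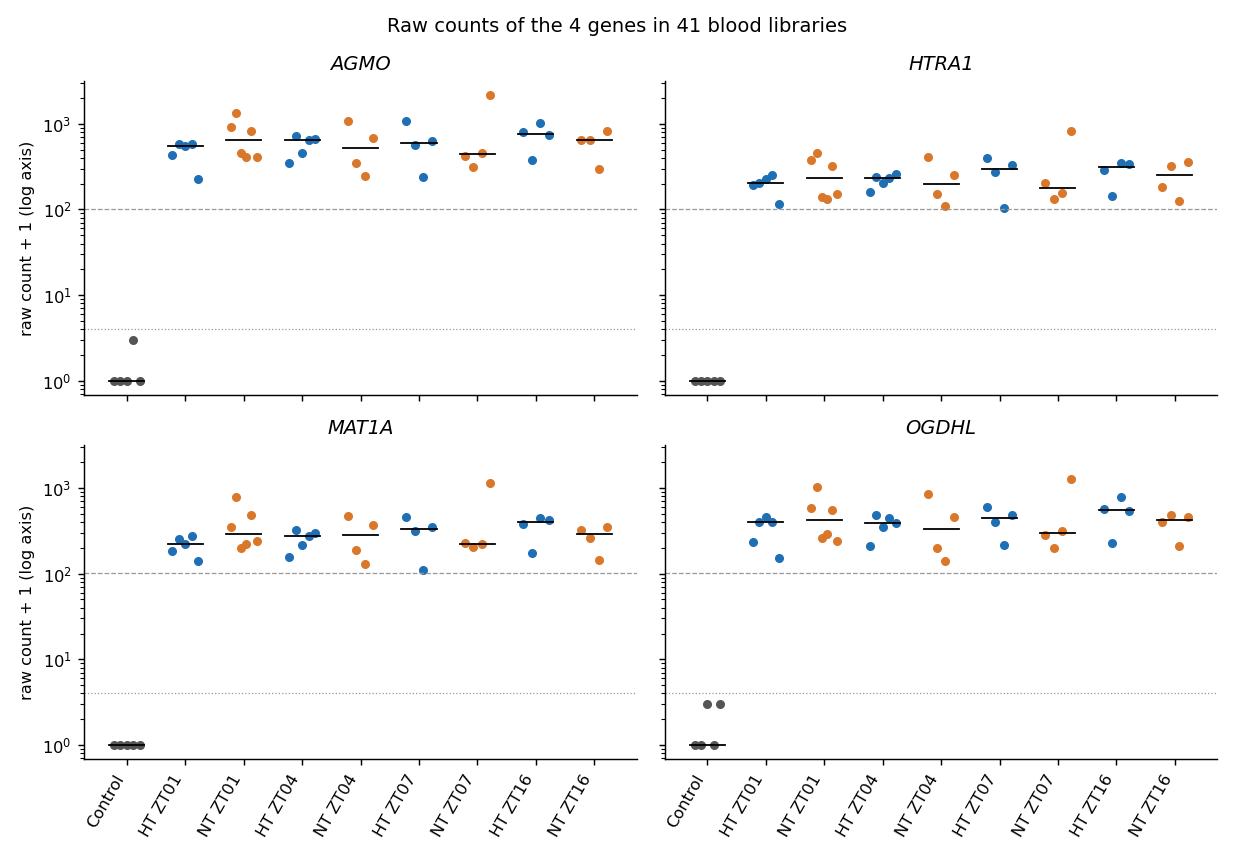
Raw count plus 1 (log axis) of AGMO, HTRA1, MAT1A and OGDHL in each of 41 libraries, by group (control in grey, HT in blue, NT in orange), with group medians as black bars and the rule's limits of 3 and 100 counts as dotted and dashed lines. Control values are 0 or 2, and HT and NT values of the 4 genes lie between 102 and 2149 in all groups.

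The controls carry the sample numbers 8, 15, 24, 26 and 27 in a series that runs from 1 to 48. No control thus has a number above 27, whereas HT and NT libraries carry numbers from 1 to 48. For 6 HT and NT libraries the number lies next to that of a control. They had 239 to 1086 counts of AGMO, 102 to 407 of HTRA1, 108 to 465 of MAT1A and 197 to 849 of OGDHL. Whether the numbers follow the order of animals, extractions or sequencing is not stated, and no batch is labelled.

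The limits of the rule were next loosened. With at most 3 counts in each control, lowering the other limit to 50 or 30 gave 9 or 10 symbols. With at least 100 counts in each HT and NT library, raising the control limit to 10 or 30 gave 13 or 23 symbols. Just inside the rule lay HTRA1 with a lowest HT or NT count of 102. Just outside on that side was GK3P, a symbol of the glycerol kinase family, with at most 2 counts in controls and at least 86 in the others. On the other side ACSM5 and ACSS3, mitochondrial acyl-CoA synthetases, had at most 4 counts in controls and at least 278 and 198 in the others. ABCB9, a lysosomal peptide transporter, had the highest lowest count of the 23 symbols, at 680, with 6 to 30 counts in controls. HAO1 (glycolate oxidase), ATP7B (a copper transporter), ABCB5, CPS1 (the first enzyme of the urea cycle), GFPT2, ALPG and ALDH8A1 also had at most 30 counts in each control and at least 222 elsewhere.

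The symbols with at most 3 counts in controls went on with AADACL2, DPYS, ABCA12, DHDH and PCK1 (gluconeogenesis), with lowest HT or NT counts from 75 down to 42. Below them came ABCA10, CA7, HSD17B8 and NT5C1A, from 26 down to 8. Summed over the 23 symbols, the level was 0.782 to 3.55 CPM in controls and 105 to 812 CPM in HT and NT animals, with a median of 222. The limits of 30 and 100 counts picked these symbols, so that gap was set by the choice. The reverse pattern was searched with the same limits. At least 100 counts in each control and at most 3 in each HT and NT library was met by 0 symbols. The nearest was CDHR1, a cadherin-like gene, with 0 to 7 counts in controls and 0 to 2 elsewhere.

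**Figure D2:**
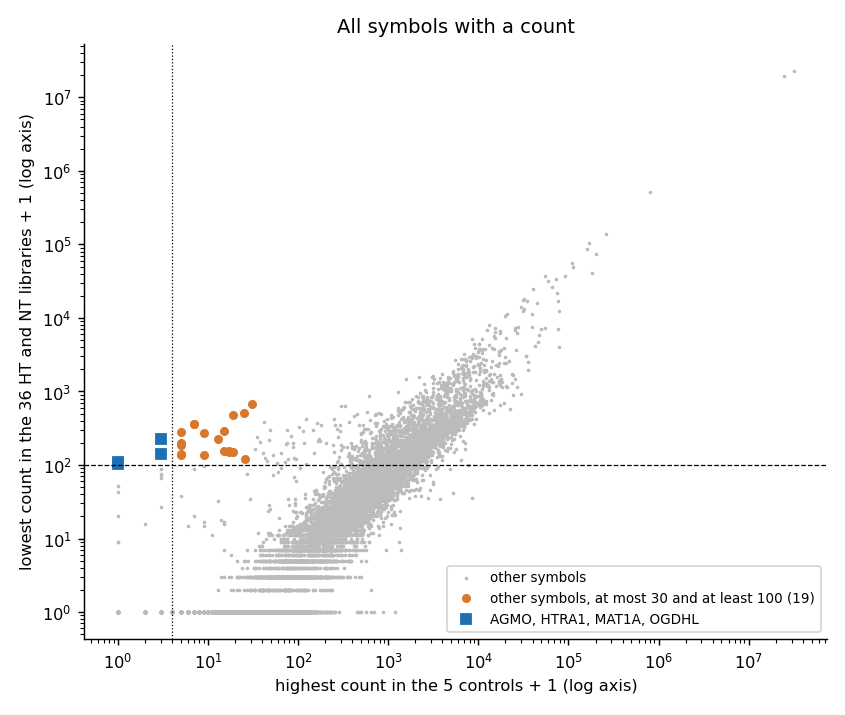
Each point is a symbol with a count: the highest count in the 5 controls plus 1 against the lowest count in the 36 HT and NT libraries plus 1 (log axes), with the rule's limits as lines. The 4 genes (blue, HTRA1 and MAT1A nearly superposed at 0 control counts) and the 19 further symbols within 30 and 100 counts (orange) lie to the upper left of the main cloud.

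Within the 36 HT and NT animals the levels of the 4 genes were followed over the torpor bout. For AGMO at ZT01 the HT libraries had 7.20, 10.3, 7.62, 10.2 and 4.03 CPM, and the 6 NT libraries had 7.46 to 20.9 with a median of 10.3. At ZT04 AGMO had 6.45, 12.4, 8.95, 10.997 and 11.2 CPM in HT and 17.1, 6.68, 4.50 and 10.5 in NT. The HT values lay within the NT range at ZT04 and overlapped it at ZT01. At ZT07 AGMO had 19.6, 8.74, 4.56 and 10.2 CPM in HT and 6.58, 4.87, 8.74 and 38.4 in NT. At ZT16 AGMO had 13.2, 6.47, 14.5 and 13.99 CPM in HT and 10.2, 10.6, 5.54 and 12.97 in NT. NT ZT07 replicate 4 was the highest of all libraries for AGMO, at 38.4 CPM, and HT ZT01 replicate 5 the lowest of the 36 at 4.03.

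HTRA1 at ZT01 had 3.22, 3.68, 3.18, 4.33 and 2.01 CPM in HT, and 2.47 to 7.07 with a median of 3.77 in NT. At ZT04 HTRA1 had 2.90, 4.16, 4.09, 3.96 and 4.35 CPM in HT and 6.399, 2.83, 2.03 and 3.81 in NT. The HT animals at ZT04 were close to each other (3.89 ± 0.571, SD, n = 5), and the NT animals spread around them. At ZT07 HTRA1 had 7.28, 4.19, 1.94 and 5.29 CPM in HT and 3.14, 2.05, 2.90 and 14.7 in NT. At ZT16 HTRA1 had 4.79, 2.46, 4.88 and 6.43 CPM in HT and 2.94, 5.28, 2.34 and 5.59 in NT. The HT and NT values of HTRA1 overlapped at each time point, and NT ZT07 replicate 4 was again highest.

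MAT1A at ZT01 had 3.07, 4.52, 3.06, 4.78 and 2.44 CPM in HT, and 3.55 to 12.3 with a median of 4.63 in NT. At ZT04 MAT1A had 2.85, 5.64, 4.29, 4.68 and 5.01 CPM in HT and 7.31, 3.61, 2.38 and 5.72 in NT. At ZT01 3 HT animals lay below every NT animal, and at ZT04 all HT animals lay within the NT range. At ZT07 MAT1A had 8.40, 4.83, 2.06 and 5.65 CPM in HT and 3.48, 3.12, 4.21 and 20.3 in NT. At ZT16 MAT1A had 6.41, 2.96, 6.35 and 7.97 CPM in HT and 5.15, 4.25, 2.66 and 5.51 in NT. At ZT07 the highest MAT1A value stood in the NT group, whose other 3 animals lay between the lowest and the next lowest HT animal.

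OGDHL at ZT01 had 3.85, 7.10, 6.32, 6.93 and 2.70 CPM in HT, and 4.35 to 15.9 with a median of 6.90 in NT. At ZT04 OGDHL had 3.86, 8.40, 7.06, 7.57 and 6.58 CPM in HT and 13.3, 3.74, 2.60 and 7.13 in NT. The widest NT value at ZT04, replicate 1, was above all HT values. At ZT07 OGDHL had 10.98, 6.27, 4.12 and 7.81 CPM in HT and 4.41, 3.11, 6.03 and 23.0 in NT. At ZT16 OGDHL had 9.51, 3.96, 11.2 and 10.04 CPM in HT and 6.37, 7.98, 3.97 and 7.25 in NT. At ZT16 3 HT animals had more OGDHL than every NT animal and the fourth had slightly less than all of them.

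Ordered by mean, the 8 HT and NT groups ran from 7.88 ± 2.59 CPM in HT ZT01 to 14.6 ± 15.9 in NT ZT07 for AGMO (SD, n = 5 and 4). By mean the same groups were at the ends for the other genes. The place of NT ZT07 rested on its replicate 4. By median NT ZT07 was the lowest of the 8 groups for HTRA1 (3.02 CPM) and OGDHL (5.22). For AGMO (7.66) and MAT1A (3.85) only HT ZT01 had a lower median. The means of HTRA1 ran from 3.28 ± 0.847 to 5.71 ± 6.04, of MAT1A from 3.57 ± 1.02 to 7.78 ± 8.37 and of OGDHL from 5.38 ± 1.98 to 9.13 ± 9.31 CPM. Neighbouring groups in the order differed by less than the larger of their SDs for each gene.

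The question the series was built for, HT against NT at a given time, was put to the 4 genes with edgeR's quasi-likelihood test and Benjamini-Hochberg adjustment over all genes kept by the filter on low counts. All 4 genes passed the filter in each comparison. None of the 4 passed the threshold of adjusted p under 0.05 at any time point, with edgeR, with DESeq2 or in any other fit that was tried (lowest adjusted p = 0.296). At ZT01, 0 of 10509 genes tested were called (0.0%), with 807 at an unadjusted p under 0.05 and 12 by DESeq2. The scaled log2 difference of HT minus NT was -0.52 ± 0.30 for AGMO (SE, adjusted p = 0.705), -0.30 ± 0.29 for HTRA1 (adjusted p = 0.806), -0.74 ± 0.30 for MAT1A (adjusted p = 0.642) and -0.53 ± 0.33 for OGDHL (adjusted p = 0.705). MAT1A at ZT01 was the only one of the 16 differences whose 95% interval, not adjusted for the number of genes, left out 0 (-1.38 to -0.10).

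At ZT04, 0.447% of 10505 genes were called. The differences of the 4 genes were -0.11 ± 0.43 for AGMO, -0.14 ± 0.40 for HTRA1, -0.24 ± 0.40 for MAT1A and -0.13 ± 0.47 for OGDHL (SE, edgeR adjusted p from 0.849 to 0.942). The 95% intervals reached from -1.14 to 0.88 at the widest, for OGDHL. At ZT07, where 10.4% of 10787 genes were called, the differences were -0.70 ± 0.69, -0.53 ± 0.66, -0.82 ± 0.67 and -0.57 ± 0.62 in the same order (adjusted p from 0.463 to 0.642). These rested on a single library: without NT ZT07 replicate 4 they were 0.59 ± 0.46, 0.71 ± 0.43, 0.47 ± 0.41 and 0.60 ± 0.39 (edgeR adjusted p from 0.326 to 0.519).

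At ZT16, where 0.0187% of 10705 genes were called, the differences were -0.26 ± 0.32 for AGMO, -0.32 ± 0.33 for HTRA1, -0.13 ± 0.34 for MAT1A and -0.10 ± 0.33 for OGDHL (SE, edgeR adjusted p from 0.908 to 0.976). On the CPM scale the HT means were the higher ones at ZT16, for instance 12.05 ± 3.75 against 9.83 ± 3.11 for AGMO (SD, n = 4 and 4), so the sign there depends on the scaling. AGMO and HTRA1 at ZT04 did likewise, with HT means of 10.004 and 3.89 CPM against 9.69 and 3.77. All 4 HT animals at ZT16 were female and all 4 NT animals male, so the state and the sex cannot be told apart there. At ZT04 the 4 NT animals were male, and the HT animals were 2 males and 3 females. The intervals leave room for differences of about the same size as the spread between animals, and equality of HT and NT was not shown.

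**Figure D3:**
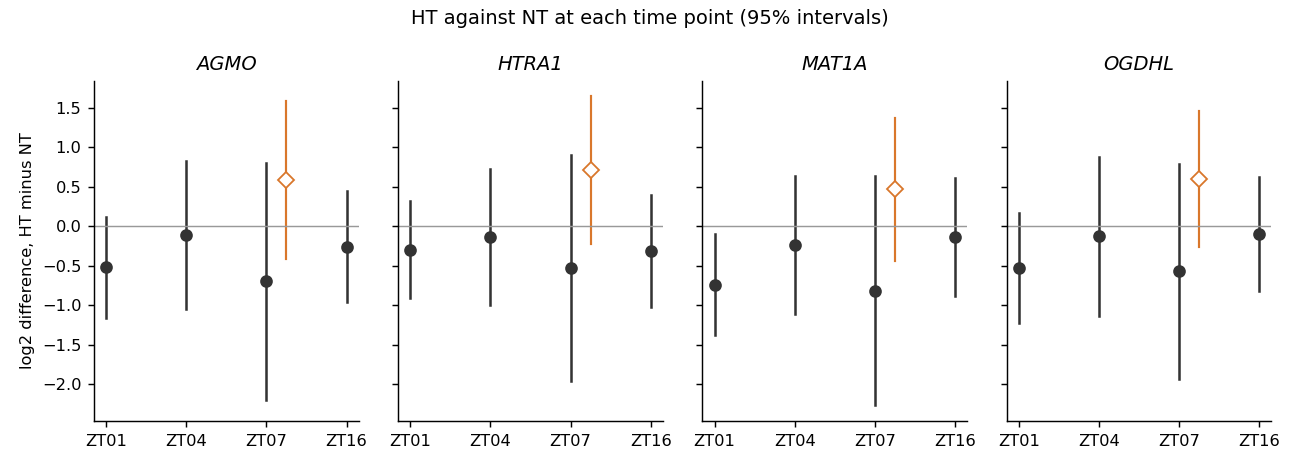
Scaled log2 difference of HT minus NT for each of the 4 genes at ZT01, ZT04, ZT07 and ZT16, with 95% intervals (black circles), and at ZT07 without NT replicate 4 (open orange diamonds). The interval excludes 0 for MAT1A at ZT01 (-1.38 to -0.10, not past the adjusted threshold), and at ZT07 each value changes sign without that library.

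The HT-NT difference was also tested for change between time points, in a fit of the 36 animals. It was called in 1.13% of 11471 genes, and the 4 genes had edgeR adjusted p from 0.901 to 0.983. Over the 4 time points within NT animals 0 of 11471 genes were called (0.0%, with 650 at an unadjusted p under 0.05 and 6 by DESeq2), and the 4 genes had adjusted p from 0.993 to 0.999. Within HT animals 10.8% of genes were called over the time points, and the 4 genes had adjusted p from 0.905 to 0.955. Between females and males, 18 of each, 0.0429% of 11651 genes were called. AGMO differed by -0.25 ± 0.35 (log2, female minus male, SE), HTRA1 by -0.28 ± 0.33, MAT1A by -0.21 ± 0.34 and OGDHL by -0.11 ± 0.35 (edgeR adjusted p = 0.999 for each). Their CPM means were close, for instance 10.7 in females and 10.8 in males for AGMO.

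Animals of a single group differed widely from each other in the 4 genes. After each group's mean was removed, the SD of the log2 level outside haemoglobin was 0.78 for AGMO, 0.75 for HTRA1, 0.75 for MAT1A and 0.80 for OGDHL. The median was 0.36 over 3184 other genes with a median of 200 to 800 counts, of which 98.4% to 99.2% had a smaller SD than the gene in question. From the lowest to the highest of the 36 libraries the CPM level changed 9.53-fold for AGMO, 7.58-fold for HTRA1, 9.87-fold for MAT1A and 8.83-fold for OGDHL.

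The 4 genes moved together from animal to animal. Over the 36 libraries, after the group means were removed, Pearson's r of the log2 CPM between pairs of them was 0.930 (HTRA1 and OGDHL) to 0.967 (AGMO and OGDHL). Spearman's rho was 0.890 to 0.9501. The permutation p was 1e-05 for each of the 6 pairs, the smallest that the permutations can give, and 1.67e-05 after adjustment over 10 relations. Without the 2 libraries farthest from the median, r was 0.903 to 0.955. Within HT animals alone r was 0.883 to 0.971 and within NT animals alone 0.923 to 0.982 (n = 18 each). The other 4 relations, of each gene with the share of counts outside haemoglobin, gave r of -0.08 to -0.04 and rho of -0.18 to -0.14 (permutation p from 0.646 to 0.797 for r and from 0.298 to 0.400 for rho, adjusted 0.797 and 0.400). Without the 2 farthest libraries r was -0.21 to -0.17.

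The rank of the libraries showed the same thing. NT ZT07 replicate 4 was first of the 36 for all 4 genes, and NT ZT01 replicate 2 ranked 2 or 3 for each. Of the summed counts of the 4 genes, AGMO took 39.04% ± 1.96, OGDHL 26.2% ± 2.57, MAT1A 19.1% ± 2.18 and HTRA1 15.6% ± 1.90 (SD, n = 36). The log2 ratio between 2 of the genes had an SD of 0.18 to 0.27, where counting error alone gives 0.10 to 0.14 and the level of each gene had an SD of 0.64 to 0.70. Gene length is not known here, so these shares do not rank the genes by number of molecules.

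**Figure D4:**
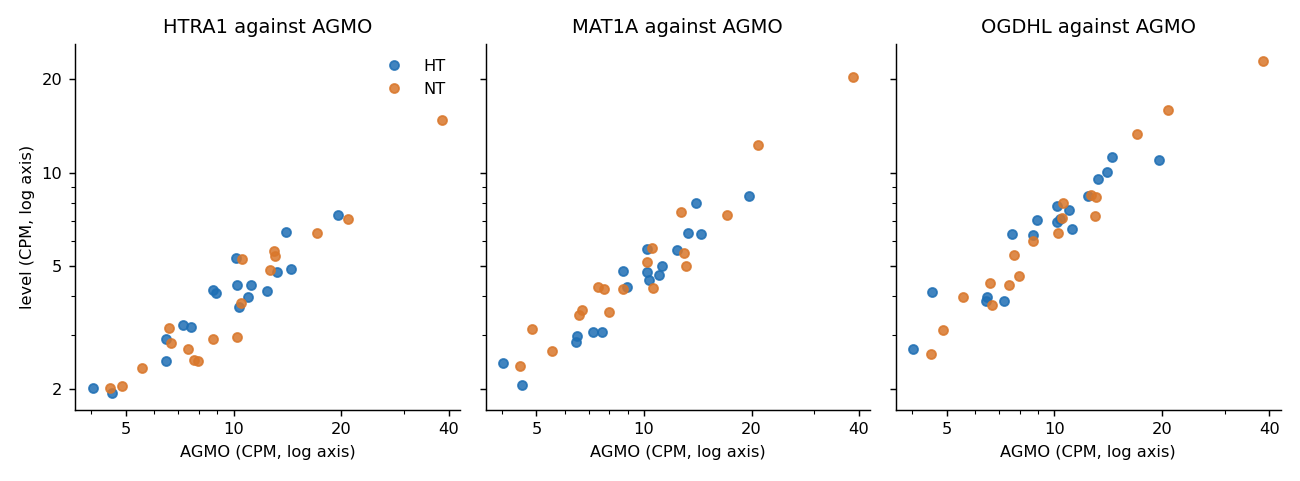
Level of HTRA1, MAT1A and OGDHL (CPM, log axis) against AGMO (CPM, log axis) in 18 HT (blue) and 18 NT (orange) libraries, 1 point per animal. HT and NT animals follow a common line in each panel, and the uppermost point is NT ZT07 replicate 4 (AGMO 38.4 CPM).

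The genes most like each of the 4 were taken by r over the same 36 libraries, with group means removed. They are named as a description, and these points share libraries and depth. For AGMO they were CLPB (r = 0.986), a mitochondrial disaggregase named after a bacterial chaperone, ABCB9 (0.982), EEF1AKMT4 (0.981), a methyltransferase of an elongation factor, ACSS3 (0.980) and CHDH (0.979), choline dehydrogenase. For HTRA1 they were ACSM5 (0.962), THNSL2 (0.962), a threonine synthase-like gene, ACSS3 (0.961), LCT (0.961), the intestinal lactase, and THOP1 (0.960), a peptidase. For MAT1A they were MTO1 (0.971), a tRNA-modifying enzyme of mitochondria, ACSF3 (0.969), CPS1 (0.968), ABCB9 (0.968) and CLPB (0.966). For OGDHL they were CLPB (0.978), ABCB9 (0.978), ABCB5 (0.977), DGKK (0.976) and SSBP1 (0.976), the single-stranded DNA-binding protein of mitochondria. Several of these genes had counts in controls, such as CLPB with 40 to 101 against 324 to 2995 elsewhere, and SSBP1 with 101 to 603 against 875 to 5500. They were thus partly, not fully, missing there.

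Of 11467 other genes, 113 had an r of at least 0.9 with the mean of the 4 genes (0.985%). This correlation used no control library. Control and NT animals were then compared over all genes in edgeR, with 250 of 11636 genes called (2.15%): 235 lower in controls (2.02%) and 15 higher (0.129%). The 235 include the 4 genes, whose call was fixed by how they were chosen. Before scaling, the median gene was higher in controls by 0.97 on the log2 scale of CPM, where haemoglobin took a smaller share, and after scaling the median difference was 0.02. All 113 genes with r of at least 0.9 were among the 231 other genes lower in controls, of which they make 48.9%. An r of at least 0.5 was found in 198 of the 231 lower genes and in 0 of the 15 higher ones. The median r was 0.89 in the lower genes, -0.08 in the higher ones and -0.08 over all genes. Without NT ZT07 replicate 4, 92 genes had r of at least 0.9, and all 92 were among the 113.

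**Figure D5:**
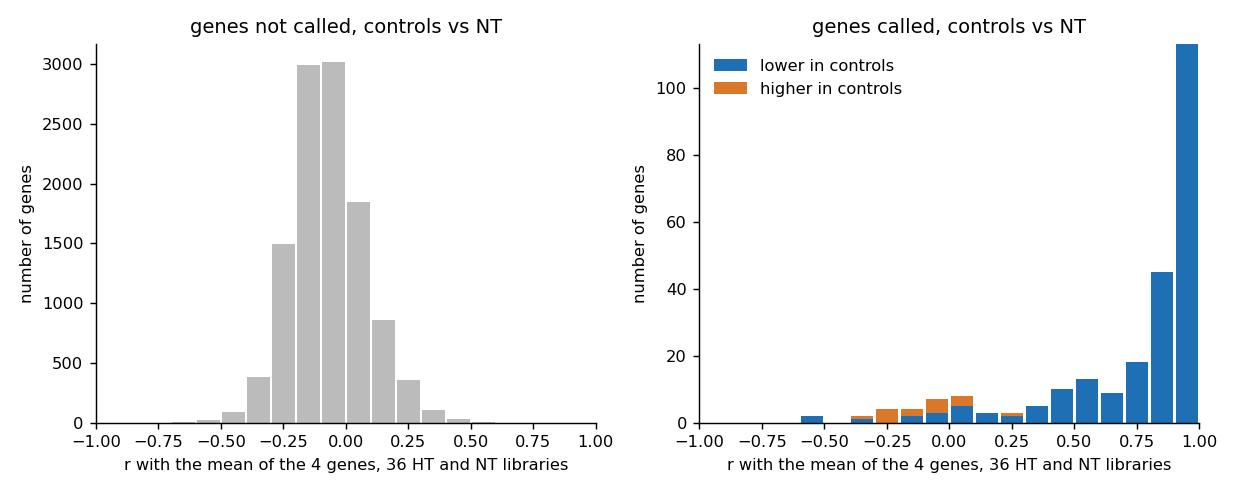
Number of genes by r with the mean of the 4 genes over 36 HT and NT libraries, for genes not called between controls and NT animals (left) and genes called (right, lower in controls in blue and higher in orange). The highest bin, from 0.9 to 1.0, holds 113 genes, all lower in controls.

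The 113 genes and the 4 together made 0.119% to 0.175% of the counts outside haemoglobin in controls and 0.525% to 3.50% in HT and NT animals, with a median of 1.08%. The ranges did not overlap, which is no separate result. The 4 genes were chosen by this gap, and all 113 others were called lower in controls. The 19 further symbols near the rule had r of 0.942 to 0.990 with the 4 genes.

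Paralogs of the 4 genes were compared between controls and NT animals. HTRA2, a mitochondrial protease of the HTRA family, had 0 counts in all controls and 8 to 137 in HT and NT animals. Its level in NT animals, 0.770 ± 0.566 CPM (SD, n = 18), was at least 15.3-fold that of the 3-count floor per control library (edgeR adjusted p = 2.27e-08), and its r with the 4 genes was 0.862. HTRA2 passed the filter on low counts only through HT and NT libraries, so its p is no separate evidence. HTRA3 was too low to be tested, with 0 to 4 counts in controls and 0 to 16 elsewhere. HTRA4 had 2 to 64 counts in controls and differed by -0.41 ± 0.41 (log2, controls minus NT, SE, edgeR adjusted p = 0.857).

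MAT2A, the methionine adenosyltransferase of most tissues, had 550 to 2639 counts in controls and 204 to 1533 elsewhere, with a scaled difference of -0.05 ± 0.13 (adjusted p = 0.957, edgeR). OGDH, the main 2-oxoglutarate dehydrogenase, differed by -0.10 ± 0.14 (adjusted p = 0.908), with 1765 to 4159 counts in controls. DHTKD1, a further relative, had 0 to 17 counts in controls and 0 to 15 elsewhere (difference -0.71 ± 0.74, adjusted p = 0.864). The r with the 4 genes was -0.29 for MAT2A and -0.28 for OGDH. The forms of the enzymes usual in blood were thus counted in controls at levels with intervals of -0.31 to 0.21 (MAT2A) and -0.38 to 0.18 (OGDH) around the NT level.

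The pathways of the 4 genes were read from lists that leave the 4 genes out. Over all genes tested, 2.02% were called lower in controls by edgeR. Of 17 tested genes that supply tetrahydrobiopterin or build ether lipids, the surroundings of AGMO, 0 were called in edgeR or DESeq2, either lower or higher, and 0 had an unadjusted p under 0.05, with the lowest adjusted p, 0.693, for TMEM189, the plasmanylethanolamine desaturase. Of 14 genes of the methionine cycle, 3 were lower in controls: CTH, which makes cysteine (-4.85 ± 0.51, adjusted p = 3.11e-09), AHCY, which splits S-adenosylhomocysteine (-2.01 ± 0.30, adjusted p = 5.04e-06), and MTR, methionine synthase (-1.85 ± 0.28, adjusted p = 9.07e-06). Of 13 genes of 2-oxo acid dehydrogenase complexes, 1 was lower, DLD, their shared dihydrolipoamide dehydrogenase (-2.05 ± 0.31, adjusted p = 8.18e-06). Of 10 genes of the HTRA family and of quality-control proteases, 3 were lower: HTRA2 (with the limit given above), and AFG3L2 (-2.94 ± 0.39, adjusted p = 5.30e-07) and CLPP (-1.73 ± 0.32, adjusted p = 0.000207), both mitochondrial. None of the 4 lists had a gene called higher in controls by edgeR or DESeq2 with all libraries in the fit. In the 2-oxo acid dehydrogenase list up to 1 gene was called higher in edgeR when a library was left out. MRPS36 of that list differed by 0.61 ± 0.19 (edgeR adjusted p = 0.0957). The genes called lower had r with the 4 genes of 0.860 to 0.979. At an unadjusted edgeR p under 0.05, in either direction, stood 5 of the 14, 2 of the 13 and 3 of the 10 genes.

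A list of enzymes and chaperones with well-conserved bacterial counterparts was read in the same way. Of its 99 tested genes, 32 (32.3%) were lower in controls and 0 higher in edgeR (36 and 0 in DESeq2, with 42 at an unadjusted edgeR p under 0.05 in either direction), against 2.02% lower over all genes tested. The list's median difference was -0.22 on the log2 scale, against 0.02 over all genes, and 19 of the 99 had r of at least 0.9 with the 4 genes. The list's median r was 0.09, against -0.08 over all genes. The count was 30 to 34 when each library was left out in turn. With the lowest p stood CPS1 (0 to 6 counts in controls, 355 to 2815 elsewhere), HGD, which breaks down homogentisate (0 to 4 and 188 to 1698), HAL, the histidine ammonia-lyase (2 to 18 and 150 to 997), and ACSF3 (39 to 121 and 421 to 3180). DLD, CTH, AHCY, MTR and CLPP are in this list too. The other 67 genes, OGDH and MAT2A among them, were not called. The list was drawn up with the 4 genes in view and with earlier results of these data known. CPS1, HGD and HAL are also among the symbols near the rule. The share of 32.3% is therefore a description and no separate evidence. The part of bacterial RNA in these counts was not tested.

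Because MAT1A and CPS1 are known as liver genes, hepatocyte markers were read in the same libraries. Of 18 hepatocyte markers, 6 (TTR, FGA, FGG, HP, CYP7A1 and TAT) had 0 counts in every library, and ALB, the most abundant liver transcript, had 0 in controls and at most 10 elsewhere. The summed level of the 17 markers other than CPS1 was 3.25 to 11.4 CPM in controls and 1.04 to 6.53 in HT and NT animals. On this unscaled measure the median gene was also higher in controls, so the sums do not compare liver RNA between the groups. CPS1 was the only one of the 3 tested markers that was called lower in controls, and DESeq2 also called 1. At an unadjusted edgeR p under 0.05 stood 2 of the 3, and their median difference was -0.86 on the log2 scale.

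Blood cell markers were compared between controls and NT animals. Of 18 erythroid markers 17 were tested and 1 was lower in controls, HBB (-1.44 ± 0.40, edgeR adjusted p = 0.0467), a call that was lost when any of 23 of the 41 libraries was left out, controls 1, 2, 4 and 5 among them (adjusted p from 0.0154 to 0.221 over all 41). DESeq2 called 4 erythroid markers lower, 7 had an unadjusted edgeR p under 0.05, and the list's median difference was -0.49 on the log2 scale. The 11 T cell, 8 B cell, 10 neutrophil, 8 monocyte and 9 platelet markers tested had 0 calls in edgeR and in DESeq2. At an unadjusted p under 0.05 stood 6 of the neutrophil and 2 of the platelet markers and 0 of the other 3 lists. The 6 neutrophil markers (S100A8, S100A9, CSF3R, LTF, MMP8 and MMP9) were all on the side of higher levels in controls, and the median over the 10 was 0.74 on the log2 scale. Their sum was 32.1 to 160 CPM in controls and 5.07 to 58.2 elsewhere, with a median of 20.1, and 1 neutrophil marker was called when a library was left out. The summed levels of the 5 lists overlapped between controls and the other animals, for instance 208 to 433 and 63.2 to 366 CPM for T cells, and 440 to 985 and 270 to 874 for platelets. These sums, the neutrophil sum included, are unscaled CPM, on which the median gene was also higher in controls. They thus do not compare cell content between the groups. The median r with the 4 genes ranged from -0.12 in erythroid to 0.18 in platelet markers. Markers of heart muscle, through which the blood was drawn, of neurons and of endothelium and connective tissue also had 0 calls by either tool and 0 genes at an unadjusted p under 0.05, over 5, 1 and 6 tested genes.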

How the data were processed

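RNA of blood pellets from 41 hamsters was sequenced by the authors (paired-end, random-primed, HiSeq). Per the study's methods, reads were checked with fastqc 0.11.9, trimmed with trimmomatic 0.39 and assembled de novo with trinity 2.8.6 from all samples merged, and each contig was translated in 6 frames and given the human symbol of its best protein match (bitscore cutoff 50). Reads were aligned with hisat2 and counted with scripts of the authors. The deposited values are raw counts per symbol, so contigs that share a symbol cannot be told apart. The methods describe the ZT04 animals and are taken to hold for all libraries.

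Groups came from the labels. AGMO, HTRA1, MAT1A and OGDHL and all gene lists were chosen with earlier results of these data known. Counts were tested in R 4.3.3 with edgeR 4.0.16 (TMM factors, filterByExpr with minimum count 10 and minimum total 15, quasi-likelihood test, Benjamini-Hochberg adjustment over all genes kept, threshold 0.05), on raw counts and checked on simulated data. HT and NT animals were compared within each time point, and the difference between time points, the time points, sex and the contrast of controls with the mean of the 4 NT groups in fits of 36 or 41 animals. The SE of a log2 difference was its size divided by the square root of edgeR's F. CPM divides by all counts of a library. Correlations used log2 CPM with 0.5 added to each count and the group means removed, and permutation tests with 100000 draws, 2-sided. Alternatives were DESeq2 1.42.0, RLE factors, a table with all low genes kept or with haemoglobin removed, fits without each animal in turn, fits with sex or with a block for the replicate number, and wider fits. Leaving out NT ZT07 replicate 4 from the correlations was chosen after seeing the data. Besides the 4 genes, the text names their paralogs, up to 4 genes a list with the lowest p, the 5 genes most like each and up to 10 symbols next to each limit of the rule. HBB, named for a count of 1, ALB, the hepatocyte markers at 0 and the named neutrophil markers were chosen after their values were seen. Each library is 1 animal, and none of the 820 pairs of libraries agreed within sampling noise (lowest chi-square per degree of freedom 9.23). Figures were drawn with matplotlib.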

Additional observations from a re-analysis of the deposited data

Results flagged for a closer look

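Within each group of 4 to 6 animals, the highest and the lowest CPM of the 4 genes were set against the range of the group (Dixon's criterion), which chance passes in about 1 of 20 groups. Of 34 gene and group combinations that could be tested, 8 passed, and since the 4 genes move together these are not 8 separate events. In 4 of them NT ZT07 replicate 4 lay far above the other 3 animals of its group: 38.4 CPM against 4.87 to 8.74 for AGMO, 14.7 against 2.05 to 3.14 for HTRA1, 20.3 against 3.12 to 4.21 for MAT1A and 23.0 against 3.11 to 6.03 for OGDHL. NT ZT01 replicate 2 was apart for OGDHL, at 15.9 CPM against 4.35 to 8.49 in its group. On the low side, HT ZT16 replicate 2 had 6.47 CPM of AGMO where the others had 13.2 to 14.5, and HT ZT04 replicate 1 had 2.90 CPM of HTRA1 where the others had 3.96 to 4.35. Control replicate 4 was singled out for AGMO at 0.0325 CPM, which is 2 counts where the other controls had 0. With the others at 0 any count passes, so this case says nothing. No difference of HT and NT between time points passed for any of the 4 genes.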

How the results depend on the processing

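None of the 4 genes passed an adjusted p of 0.05 in any of 920 alternative results of the tests within HT and NT animals, the lowest adjusted p being 0.296. Each result is 1 gene in 1 fit, and since the 4 genes move together these are not separate checks. The sign of HT minus NT changed in 26 of 268 such results. It turned positive at ZT04 with the replicate block for AGMO (0.16), HTRA1 (0.13) and OGDHL (0.28), and with all 36 animals and sex in the fit for AGMO (0.070) and HTRA1 (0.066). That last fit at ZT16 gave 0.00026 for AGMO, 0.084 for MAT1A and 0.017 for OGDHL. Leaving out each animal in turn, at ZT04 AGMO ran from -0.42 to 0.34, HTRA1 from -0.44 to 0.27, MAT1A from -0.55 to 0.079 and OGDHL from -0.46 to 0.51. At ZT07 they ran from -1.19 to 0.59, -0.86 to 0.71, -1.17 to 0.47 and -0.90 to 0.60, each positive only without NT ZT07 replicate 4. At ZT16 MAT1A ran from -0.34 to 0.13 and OGDHL from -0.29 to 0.18, and OGDHL between females and males from -0.29 to 0.052. The causes were not tested.

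Counts over all genes moved more. DESeq2 called 12 genes at ZT01, 487 at ZT04, 43 at ZT16, 453 for the difference between time points, 6 over time in NT and 12 for sex. The fit of all 36 animals called 557 at ZT04 and 0 at ZT16 (edgeR), with sex 3 at ZT01 and 472 at ZT04. Sex as a covariate left 1 at ZT04 and 65 for the difference between time points, and no filter 78 for the latter. Leaving out animals gave 2 to 34 at ZT04, 410 to 968 at ZT07, 2 to 4 at ZT16, 56 to 161 for the difference, 0 to 1 in NT and 3 to 7 for sex. Controls against NT gave 218 to 278 without each animal and 252 to 333 under the other settings.

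With the replicate number as a block, 2 genes were called at ZT01 and 13 at ZT04. Animals of the same number correlated by -0.13 to 0.13, so the numbers were not taken as pairs. Limits of 10 and 50, 10 and 30, 30 and 50, and 30 and 30 counts gave 20, 22, 31 and 35 symbols. By Spearman's rho 3 to 4 of the 5 most similar genes of each of the 4 were shared, and without haemoglobin genes 4 to 5. Depth limits the controls: a count of 0 allows a level of up to about 0.0503 CPM (3 counts). At ZT16 sex could not be fitted as a covariate within the time point, since it coincides with HT and NT.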

Other observations

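The 15 genes called higher in controls than in NT animals by edgeR, which were looked at after their values were seen, had no r above 0.206 with the 4 genes over the HT and NT libraries. RETNLB, a secreted resistin-like protein, had 117 to 1378 counts in controls and 6 to 116 elsewhere (log2 difference 2.00 ± 0.33, SE, edgeR adjusted p = 3.43e-05). CLEC12A, a lectin receptor of myeloid cells, differed by 0.90 ± 0.23 (adjusted p = 0.0230, edgeR). The RNA-binding proteins HNRNPA3, HNRNPA2B1, HNRNPUL2, HNRNPD and TAF15 differed by 0.29 to 0.43. All 15 were counted in every library, with a lowest count of 5.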
